A study of Mus musculus with 6 samples.

Results

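The miR-290 to miR-295 cluster was described through 16 of the 750 miRNA assays on the cards. These were all assays whose name holds a number from 290 to 295 straight after miR-, on either card and for either species, without names ending in #, which mark passenger strands. Of the 16, 7 were on card A and 9 on card B, and 14 carried a mouse name and 2 a rat name. The study set vitrified mouse blastocysts beside fresh ones, and the question for each assay was whether its level differed between them. Blastocysts came from superovulated Kunming females 5 weeks of age. Each sample was 1 pool of 300 embryos, and 3 vitrified pools (V1, V2, V3) and 3 fresh pools (F1, F2, F3) were measured. Vitrified embryos were held for 30 s in 10% EG and 10% DMSO and for 25 s in EDFS30 inside open-pulled straws. They were then plunged into liquid nitrogen and thawed for 5 min in 0.5 M sucrose. Fresh embryos received none of these solutions. The paper scored survival by re-expansion hours after warming, and it does not state when the pooled embryos were lysed. Time after collection and selection of survivors may therefore also differ between the groups, and they cannot be told apart from vitrification. A pool holds whole blastocysts, so inner cell mass and trophectoderm were not separated.

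In mice this cluster is transcribed as 1 primary RNA that is cut into several hairpins, each of which can yield a 5p and a 3p mature strand. It is switched on in the early embryo and is known as a dominant miRNA source of embryonic stem cells. Its 3p strands with the AAGUGC seed are known to promote the cell cycle by repressing inhibitors such as Cdkn1a, and they counteract let-7, which is linked to differentiation.

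The sequences below show which assays read out miRNAs that share a seed, the stretch that pairs with target mRNAs. RefSeq (GRCm38.p6) held a mature sequence for 12 of the 18 names of the cluster on the cards, passenger strands included. It held none for miR-292-3p, which was assayed on both cards, so the seed of that strand is not shown. Bases 2 to 8, the seed, are in capitals, and each sequence runs 5′ to 3′. Assays named miR-293, miR-294 and miR-295 without an arm were read as the 3p strand, because a separate # assay covers the other one.
mmu-miR-291a-3p: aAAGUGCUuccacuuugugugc
mmu-miR-294-3p: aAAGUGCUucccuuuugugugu
mmu-miR-295-3p: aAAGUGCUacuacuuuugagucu
mmu-miR-291b-3p: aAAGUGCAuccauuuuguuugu
mmu-miR-290a-3p: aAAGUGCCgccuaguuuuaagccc
mmu-miR-293-3p: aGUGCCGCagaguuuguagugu
mmu-miR-290a-5p: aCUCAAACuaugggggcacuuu
mmu-miR-292a-5p: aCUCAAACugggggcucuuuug
The seed AAGUGCU was held by 5 mature mouse miRNAs of the table, of which 3 were from the cluster and the others were miR-302b-3p and miR-302d-3p. The seed CUCAAAC was held by 3, all from the cluster. Outside the seed the strands diverged: miR-291a-3p and miR-294-3p had the same base at 19 of 22 positions when laid side by side without gaps, and miR-294-3p and miR-295-3p at 12 of 22. The miR-293-3p strand begins with AGUGC, letters that the AAGUGC strands hold further in, so its seed is a different one. Mature strands of Mir290a, Mir291a, Mir292, Mir291b, Mir293, Mir294 and Mir295 lie on the plus strand within chr7:3218639-3220837 (GRCm38.p6), a span of 2199 bases. Mir290b and Mir292b lie on the minus strand.

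Detection of the cluster split the pools by number. None of its 16 assays gave a Ct (threshold cycle, which is higher where there is less template) within 40 cycles in V1 or in F1. In the other pools, 8 were determined in V2, 10 in V3, 10 in F2 and 8 in F3. Over all 750 miRNA assays, 218 were determined in V1 and 140 in F1, against 382 to 409 in the other pools. Only 8 cluster assays were determined in V2, V3, F2 and F3 alike, and 3 more in 1 or 2 of these pools. The remaining 5 were undetermined everywhere, namely mmu-miR-290, mmu-miR-291-5p, mmu-miR-292-5p and the rat assays rno-miR-293 and rno-miR-294. Every level and difference of a cluster assay given below therefore rests on the pools numbered 2 and 3.

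The highest reading of the cluster came from mmu-miR-292-3p, which was assayed on both cards. On card A its Ct was 25.47 in V2, 23.04 in V3, 23.07 in F2 and 24.9 in F3. On card B the assay of the same name gave 27.16 in V2, 23.9 in V3, 24.81 in F2 and 26.97 in F3. Both assays were earliest in V3 and F2, and the values of vitrified and fresh pools overlapped.

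mmu-miR-295, of the AAGUGCU seed, followed on card A. Its Ct was 28.17 in V2, 26.34 in V3, 25.13 in F2 and 27.15 in F3. mmu-miR-293 gave 28.76 in V2, 26.84 in V3, 26.1 in F2 and 28.71 in F3. For each of these strands F2 was the earliest pool and V2 the latest.

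mmu-miR-291a-3p and mmu-miR-294, which share the seed of miR-295, were later on the same card. miR-291a-3p gave a Ct of 29.85 in V2, 27.73 in V3, 26.81 in F2 and 29.02 in F3. miR-294 gave 31.01 in V2, 27.77 in V3, 27.68 in F2 and 30.38 in F3. V3 and F2 were earlier than V2 and F3 again, and for miR-294 the readings of V3 and F2 nearly coincided.

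The remaining assays determined in these pools were on card B. mmu-miR-290-5p, the only 5p strand among them, gave a Ct of 31.75 in V2, 27.56 in V3, 29.83 in F2 and 35.25 in F3. The card B assay named mmu-miR-291-3p gave 36.07 in V2, 30.54 in V3, 31.38 in F2 and 33.25 in F3. These were the latest of the fully determined assays and spread most between pools.

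Assays determined in part gave Ct values in V3 and F2 only. The 3p strand miR-291b-3p was determined at 32.14 in V3 and 34.28 in F2. The assay miR-291b-5p was determined only in V3, at 33.06, and miR-290-3p only in F2, at 33.75. Passenger assays, which the rule left out, showed the same: miR-295# was read at 33.65 in V3 and 31.59 in F2, miR-293# at 35.53 in V3, and miR-294# in no pool. Among 5p strands with a CUCAAAC seed, then, miR-290-5p was read in V2, V3, F2 and F3, miR-293# in V3 alone and miR-292-5p in none.

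**Figure D1:**
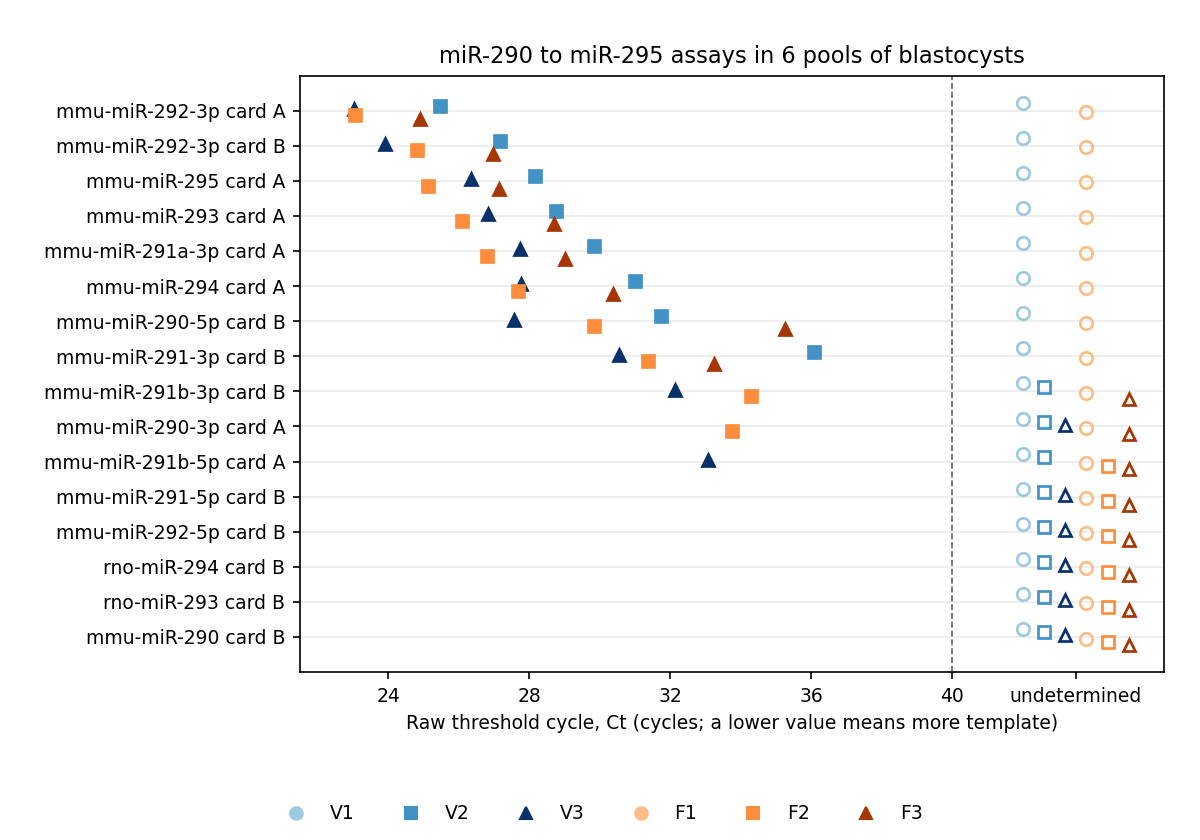
Raw Ct (x axis, cycles) of the 16 cluster assays (y axis) in each pool, with 1 filled marker per determined well, blue for vitrified and orange for fresh pools, and small vertical offsets between pools. Hollow markers right of the line at 40 cycles are undetermined wells, which include every well of V1 and F1, and the filled markers of V3 and F2 lie left of those of V2 and F3 in most assays.

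To set pools beside each other, each level was expressed relative to U6, the small nuclear RNA measured in 4 wells of every card, as the mean U6 Ct of the same card and pool minus the Ct of the assay. This level is on a log2 scale, so that 1 unit is a doubling and 0 would equal U6. U6 itself ranged from 16.52 to 17.82 cycles over all cards and pools, V1 and F1 included. The order of levels was set out over V2, V3, F2 and F3, with the caveat that assays may differ in efficiency.

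miR-292-3p on card A had the highest level, with a mean of −7.22 ± 1.63 in vitrified and −7.21 ± 1.03 in fresh pools (SD, n = 2 each). The card B assay of that name read −8.41 ± 1.46 and −8.84 ± 1.38 (SD, n = 2 each). Within a pool the card A assay was higher by 1.41 ± 0.33 (SD, n = 4). miR-295 followed at 1.17 ± 0.76 below the card B assay of miR-292-3p, and miR-293 lay 0.90 ± 0.48 below miR-295 (SD, n = 4). The gaps were thus narrower in spread than the levels themselves, because all of these assays moved together from pool to pool.

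miR-291a-3p lay 0.75 ± 0.33 below miR-293, and miR-294 lay 0.86 ± 0.58 below miR-291a-3p (SD, n = 4). So among strands with the same seed the order was miR-295, miR-291a-3p and miR-294 in every pool. miR-290-5p lay 1.71 ± 2.12 below miR-294 and 1.71 ± 2.72 above miR-291-3p of card B (SD, n = 4). Without F3 these gaps were 0.72 and 2.95, and without V2 the second was 0.84. The sign of the gap to miR-291-3p was the same in 3 of 4 pools, with an exact sign-flip p of 0.375, so these neighbours did not differ beyond their spread. The 2 assays with a miR-291 3p name differed by 4.28 ± 0.98, with miR-291a-3p on card A the higher.

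In 7 of the 8 pairs compared the first assay was higher in 4 of 4 pools. Each of these had an exact 2-sided sign-flip p of 0.125, the smallest that 4 pools allow, and 0.143 after adjustment over the 8 pairs. No pair could therefore reach significance in this design.

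Set against all assays determined on the same card, the cluster lay from near the top to near the bottom. On card A, where 212 to 239 miRNA assays were determined per pool, miR-292-3p ranked between 24 and 72 and miR-295 between 68 and 124. miR-294 ranked between 114 and 164. On card B, with 170 to 176 determined, miR-292-3p ranked between 17 and 44 and miR-291-3p between 91 and 156. The rank of miR-290-5p ranged most, from 45 in V3 to 160 in F3. The median of the 8 cluster levels was −11.07, beside −10.99 over the 326 miRNA assays determined in the same pools.

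For no cluster assay did the difference between vitrified and fresh pools pass the test. With limma over the 335 miRNA assays tested, 0 of the 8 cluster assays had an adjusted p under 0.05, against 0.0% of all assays, and 0 had an unadjusted p under 0.05, against 0.299% of all (1 of 335). With the replicate number as a block, 0 assays had an adjusted and 4 of 330 an unadjusted p under 0.05. The adjusted p was 0.998 for each of the 8. Vitrified minus fresh, the median log2 difference was −0.12 over the cluster, with 2 assays higher and 6 lower, and −0.05 over all, with 161 higher and 174 lower. With 2 values a group the exact permutation test cannot go below 0.333, and for these assays it gave 0.667 or 1.

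The intervals of these differences were wide. For miR-292-3p on card A, vitrified minus fresh was −0.01 (SE 1.45, 95% confidence interval −3.93 to 3.91), so that even a change of several doublings in either direction was not detectable. miR-295 differed by −0.85 (SE 1.38, interval −4.57 to 2.87), or −1.70 to 0 without 1 pool, and miR-291a-3p by −0.61 (SE 1.45, interval −4.52 to 3.30). For miR-293 the difference was −0.13, and for miR-294 it was −0.10. On card B it was 0.43 for miR-292-3p and −0.92 for miR-291-3p.

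miR-290-5p had the largest estimate, at 2.95 (SE 2.33, interval −3.34 to 9.24, limma adjusted p = 0.998). This was the highest of all 335 estimates, and it rested on 1 pool: without F3 it was 0.35, and without F2 it was 5.55. The levels were −14.04 in V2, −11.04 in V3, −12.89 in F2 and −18.09 in F3. V2 lay below F2, so the groups overlapped.

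**Figure D2:**
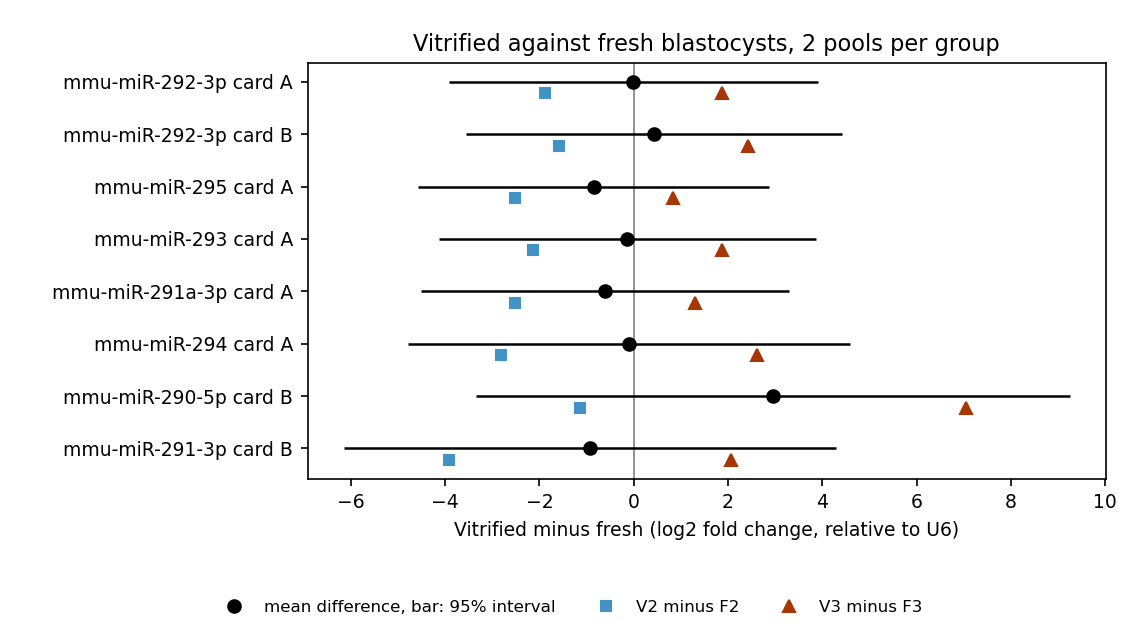
Difference in U6-relative level, vitrified minus fresh (x axis, log2), for each of the 8 cluster assays determined in V2, V3, F2 and F3. Black points are limma estimates with 95% confidence intervals as bars, squares and triangles are the differences V2 minus F2 and V3 minus F3, and every interval includes 0.

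The estimates near 0 came from opposed differences. For all 8 assays, V2 was below F2 and V3 was above F3. For miR-292-3p on card A, V2 minus F2 was −1.89 and V3 minus F3 was 1.87. For miR-294 these were −2.82 and 2.62, and for miR-293 −2.15 and 1.88. For none of the 8 did both vitrified values lie on 1 side of both fresh values, whereas this was so for 94 of the 326 assays (28.8%) determined in these pools.

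Within each group the cluster assays moved together. All 8 assays were higher in V3 than in V2 and lower in F3 than in F2, a combination that 33 of 326 assays showed (10.1%) and 25 of the 318 assays outside the cluster (7.86%). This combination was noticed in the data and is given as a description, without a test. The median difference V3 minus V2 was 2.18 on the log2 scale over the cluster, which is 4.54-fold, and −0.52 over the other assays. The median difference F3 minus F2 was −1.89 over the cluster, a 3.71-fold lower level, and 0.69 over the other assays.

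Single assays showed how wide the shift was. miR-294 was 8.64-fold higher in V3 than in V2 and 5.04-fold lower in F3 than in F2. The smallest shift between the vitrified pools was in miR-295, at 3.24-fold, and the smallest between the fresh pools was in miR-292-3p on card A, at 2.74-fold. Every cluster assay was thus among the 17 assays that were highest in V3 relative to V2, and among the 21 that were lowest in F3 relative to F2, of 326. miR-290-5p, lower by 36.7-fold in F3 than in F2, ranked at 2, and its F3 well was late, at a Ct of 35.25. One assay outside the cluster, rno-miR-190b on card A, lay beyond every cluster assay in both directions, with 10.6 for V3 minus V2 and −15.7 for F3 minus F2, the most extreme of the 326 in each. No other assay outside the cluster was as far out in both directions as the least shifted cluster assays.

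The shift was also present with other references. From raw Ct values, without any reference, the cluster medians were 2.84 for V3 minus V2 and −2.19 for F3 minus F2. Against the mean of all miRNA assays of the card determined in V2, V3, F2 and F3, they were 2.59 and −2.54. All 8 assays kept their direction with each reference. Fewer cells with cluster miRNAs and less of these miRNAs per cell cannot be told apart in pools of whole embryos.

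**Figure D3:**
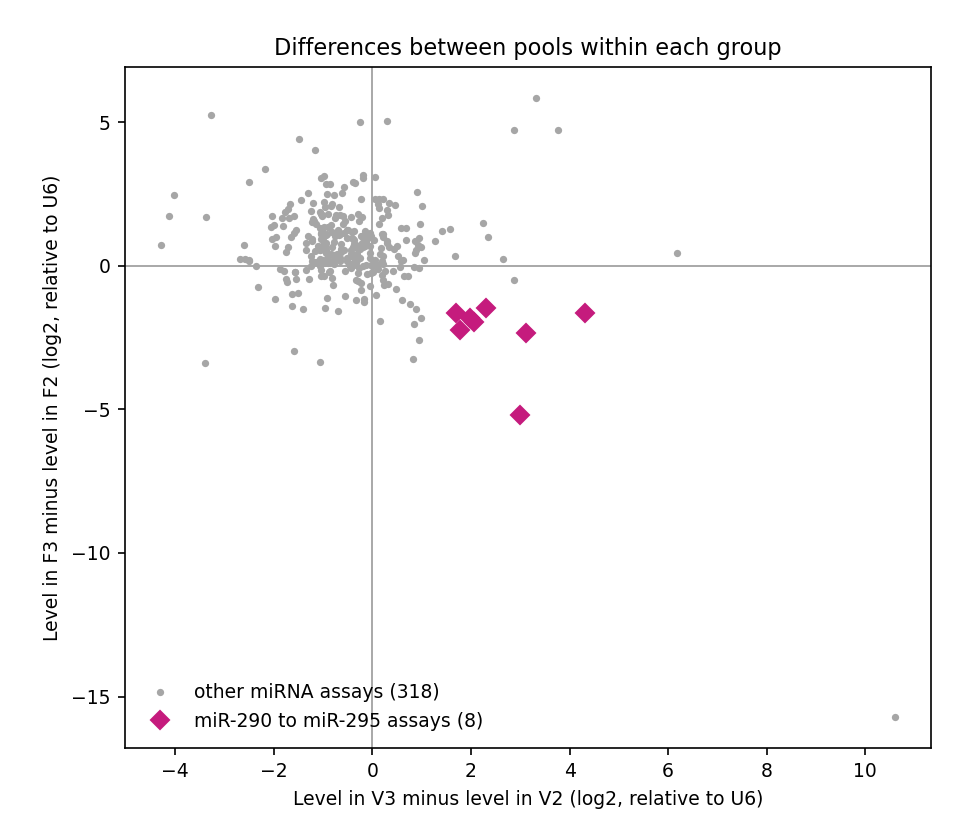
Difference V3 minus V2 (x axis) against F3 minus F2 (y axis) in U6-relative level, in log2 units, for the 326 miRNA assays determined in V2, V3, F2 and F3. Cluster assays (diamonds) all lie to the lower right, with x from 1.69 to 4.32 and y from −5.20 to −1.46, while the other assays have medians of −0.52 and 0.69.

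V1 and F1 differed from the other pools for most assays, so the undetermined wells of the cluster there were set beside assays of equal Ct. miR-292-3p on card A had a mean Ct of 24.12 over V2, V3, F2 and F3. Read as 40 cycles or more, its undetermined wells put it at least 15.9 cycles later in V1 and F1. Of the 44 other card A assays at least as early as this, 43 (97.7%) were determined in V1 and 37 (84.1%) in F1, and mmu-miR-126-5p was the 1 determined in neither. Those determined came a median of 6.08 cycles later in V1, at most 11.1, and 7.95 cycles later in F1, at most 13.1. Read in that way, the delay of miR-292-3p was longer than that of every one of these assays that was determined. Assays undetermined in a pool are left out of this. Being at least as early as miR-292-3p, each of them would be delayed there by at least as many cycles. For example, mmu-miR-20a had a mean Ct of 21.96 and was undetermined in F1.

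The contrast was weaker for later card A assays and on card B. Of 92 other card A assays at least as early as miR-295, 88 were determined in V1 and 62 in F1. Of 143 at least as early as miR-294, 115 were determined in V1 and 73 in F1. On card B, of 24 at least as early as miR-292-3p, 19 were determined in V1, 13 in F1 and 5 in neither. Of these 5, rno-miR-632, mmu-miR-2182 and mmu-miR-690 had mean Ct values of 15.3, 22.1 and 22.2, earlier than any cluster assay. Undetermined wells in both V1 and F1 were thus not limited to the cluster or to late assays. Whether an undetermined well means that the miRNA was absent was not tested. Of all 326 assays, 195 were determined in V1, 127 in F1 and 126 in neither.

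**Figure D4:**
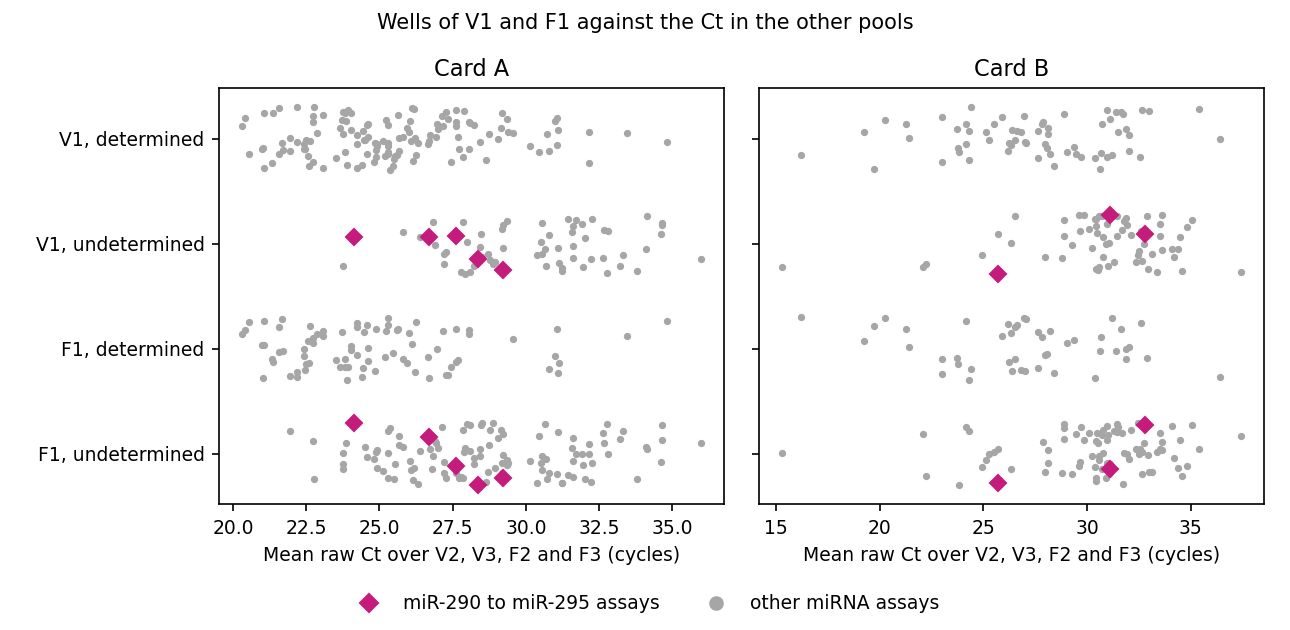
Each of the 326 miRNA assays determined in V2, V3, F2 and F3, placed by its mean Ct over these pools (x axis, cycles, 1 panel per card) and by whether its well was determined in V1 and in F1 (y axis, with random vertical scatter). The 8 cluster assays (diamonds) lie in the undetermined bands throughout, while most other card A assays as early as miR-292-3p, at 24.12 cycles, lie in the determined bands.

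Other miRNA groups give the setting for these levels. The cluster of miR-302 and miR-367, whose miR-302b-3p and miR-302d-3p strands share the AAGUGCU seed, was largely undetermined. Of its 5 assays, 3 were undetermined in every pool, and miR-302b was determined only in V3, at a Ct of 29.19, and in F2, at 31.13. mmu-miR-367 was determined in V3, F1 and F2, at 36.21, 33.35 and 38.96. So miR-302b was read in the pools where the miR-290 to miR-295 cluster was highest.

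The miR-17 family, whose AAAGUGC seed region overlaps that of the cluster by letters, showed no shift of this size. All 6 of its assays were determined in V2, V3, F2 and F3, with a median level of −6.19, and the median differences were −0.19 for V3 minus V2 and 0.13 for F3 minus F2. It was also seen where the cluster was not, with 6 assays determined in V1 and 4 in F1. For let-7, 8 of 9 names were tested, with a median level of −6.86 and median differences of −0.50 and 0.63. Of these, 2 had the signs of the cluster, let-7a with 0.33 and −0.63 and let-7f with 0.08 and −1.01. Both were undetermined in V1 and F1, where 6 and 4 of the let-7 assays were determined. None of the assays in either family had an unadjusted p under 0.05 between vitrified and fresh pools (limma).

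Markers of some other tissues were read at higher levels than the cluster. The stroma and smooth muscle miRNAs miR-143 and miR-145 had a median level of −4.74, above every cluster assay. miR-145 read −3.80 in V2, −4.0 in V3, −4.71 in F2 and −1.57 in F3, and miR-143 read −5.86, −6.80, −7.03 and −4.19. Both were higher in F3 than in F2, by 3.15 and 2.84, where the cluster was lower, and V3 minus V2 was −0.20 and −0.94. Summed over the list, and with V1 and F1 included, which gave the low ends, stroma levels ranged from −10.59 to −3.49 in vitrified and from −11.95 to −1.35 in fresh pools.

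The blood list had 3 of its 4 names on the cards, all determined in V2, V3, F2 and F3. Of these, miR-142-3p had the signs of the cluster, with 0.77 for V3 minus V2 and −1.32 for F3 minus F2, as had miR-451 with 0.64 and −0.35, while miR-223 gave −0.02 and 0.03. Again with V1 and F1 at the low ends, summed blood levels ranged from −11.60 to −4.22 in vitrified and from −13.58 to −5.12 in fresh pools. The 5 epithelial assays were determined in all 6 pools, with summed levels over these pools from −5.08 to −3.66 and from −6.89 to −3.08. Their median differences were −0.93 for V3 minus V2 and 0.46 for F3 minus F2, and 1 of them had the signs of the cluster. Over all assays outside the cluster these medians were −0.52 and 0.69. Striated muscle had 2 of 3 names on the cards, miR-1 and miR-133a, with summed levels from −12.4 to −7.49 and from −13.3 to −6.0, where the low ends were miR-133a alone in V1 and F1. The median differences of miR-1 and miR-133a were −0.87 for V3 minus V2 and 1.77 for F3 minus F2. Of the nervous system list of 2, miR-124 was determined in V2, V3, F2 and F3 and miR-9 in part. The liver miRNA miR-122 was determined only in V3 and F2, late, at 32.87 and 32.85. The part of these tissues in the level of the cluster was not tested.

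The assays with the profile most like the mean of the cluster were sought over V2, V3, F2 and F3, after centring each assay on its mean. The cluster profile was −1.22 in V2, 1.31 in V3, 1.10 in F2 and −1.19 in F3. Cluster assays lay between 0.23 (miR-294) and 1.77 (miR-290-5p) from it, as root mean square differences in log2 units, with miR-291-3p of card B at 0.84. These assays make up the profile, so their distances are partly small by construction and are not comparable with those of other assays. The 5 nearest other assays were hsa-miR-213 at 0.57, mmu-miR-191# at 0.65, mmu-miR-142-3p at 0.79, mmu-miR-15a at 0.81 and rno-miR-148b-5p at 0.85, where the median over all assays was 1.58. The cluster assay miR-290-5p lay farther out than this median. Only 4 pools enter this measure, and it says nothing of shared control.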

How the data were processed

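Small RNA of 3 vitrified and 3 fresh pools was measured by the authors with TaqMan rodent miRNA arrays, which come as card A and card B. From each pool, 30 ng of total RNA was reverse transcribed, pre-amplified and run for 40 cycles. The authors deposited raw Ct values, which are on a reversed log2 scale and in no other unit, and a table of their own fold changes, which was not used. No genome build or aligner enters these values.

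Wells undetermined or at 40 cycles or more were left out. Each level was the mean Ct of the 4 U6 wells of the same card and pool minus the Ct. Assays with at least 2 determined wells per group were fitted with lmFit and eBayes of limma 3.58.1 (R 4.3.3), and Benjamini-Hochberg adjustment of the 2-sided p-values over 335 assays. The step was tested first on simulated data with independent noise. The spread of that noise was set lower than the spread of the cluster assays here, so the simulation does not show how the fit performs on them. Exact tests used Python 3.11.15, pandas 2.3.3, numpy 2.4.6 and scipy 1.17.1. P-values rest on the spread between pools, and so few pools limit the precision. In limma that spread was moderated over all 335 assays, many of them with wells in V1 or F1. For miR-292-3p on card A the SE was 1.45 in this fit and 1.02 with pools 2 and 3 only.

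Pools of 1 number deviated together from their group means, with correlations of 0.80, 0.78 and 0.67 for numbers 1, 2 and 3. These were taken over the 122 assays determined in all 6 pools, none of them from the cluster. V1 and F1 lay far from the other pools and so moved both group means. This check therefore cannot show that V2 pairs with F2 and V3 with F3, and no correlation was taken for crossed numbers. Nothing in the sources used here says how pools of 1 number were handled. No Ct was shared between pools of a group.

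All members of the cluster are named, with the 5 nearest profiles. That search was meant for 6 pools, but 0 cluster assays were determined in 6, so 4 were used, a choice made after the values were seen. The members and lists were chosen with earlier results of these data known. Alternatives changed the reference, the limit and floor on late wells, the fit, the block and the pools included.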

Additional observations from a re-analysis of the deposited data

How the results depend on the processing

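Over 19 alternatives, 17 planned and 2 chosen after seeing the data, 0 assays had an adjusted p under 0.05 (limma), and no cluster assay had an adjusted p under 0.777. The count at an unadjusted p under 0.05, 1 of 335, was 3 with the mean of assays determined in all 6 pools as reference, with no reference or with a limit of 35 cycles. It was 0 with undetermined wells set to 40 or 35 or with only assays of 6 pools, which leaves no cluster value, 2 with a trend, 9 without moderation, 16 with pools 2 and 3 only, and 0 to 12 without 1 pool. It was 27 with pools 2 and 3 only and their card mean as reference, a change of both together. With the replicate block it was 4 of 330, and the block changed no call of a cluster assay. A crossed block, which paired V2 with F3 and V3 with F2, was among the 2 alternatives chosen after seeing the data. It follows the pattern noticed in the cluster and takes that spread out of the error, so it is no support for a difference. It gave 15 of 330 assays at an unadjusted p under 0.05, 10 higher and 5 lower. Among them, 1 was a cluster assay, miR-290-5p, with an SE of 0.88 and an adjusted p of 0.810 (limma). Estimates near 0 turned sign. For miR-292-3p on card A the difference was 0.33 with the mean of assays in all 6 pools, 0.24 with undetermined wells set to 40 or 35, 0.06 with pools 2 and 3 only and their card mean as reference, and −1.16 to 1.14 without 1 pool. For miR-293 it was 0.20, 0.16 with wells at either floor and −1.25 to 0.99 without 1 pool. For miR-294 it was 0.23, 0.18 and −1.66 to 1.45. For miR-292-3p on card B it was −0.37 with the other controls and −0.61 to 1.46 without 1 pool. Without 1 pool it was −1.60 to 0.38 for miR-291a-3p and −3.09 to 1.24 for miR-291-3p. miR-290-5p kept its sign, from 0.35 to 5.55, and miR-295 ranged from −1.70 to 0, with −1.67 from the other controls. With a limit of 35 cycles, miR-290-5p and miR-291-3p of card B dropped out of the fit, so that setting gave no estimate for them. Leaving out a pool numbered 2 or 3 leaves 1 value in that group, assumed to vary like the rest. The cause of the other changes was not tested. With the mean of assays in all 6 pools as reference, all 16 group mean levels of cluster assays moved by more than 1 SD, because that reference sets another zero.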

Other observations

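Detection gave a second view of the pools. In V3 and F2, but in neither V2 nor F3, 14 miRNA assays were determined, with V1 and F1 left out of account. Among them were mmu-miR-291b-3p of the cluster and mmu-miR-295#, the passenger strand assay of miR-295. They also held mmu-miR-302b and mmu-miR-367 of the other embryonic stem cell cluster, of which mmu-miR-367 was determined in F1 too. The reverse pattern, V2 and F3 but neither V3 nor F2, was found for 11 assays. Likewise, V2 and F2 but neither V3 nor F3 was found for 5, and V3 and F3 but neither V2 nor F2 for 7. None of these assays was from the miR-290 to miR-295 cluster. The patterns were counted after the values were seen and were not tested, and V3 and F2 also had the most assays determined of all pools, 407 and 409.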
